A study of Mus musculus with 10 samples.

Results

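Osteoblastic lineage cells (OBCs) are the bone-forming cells and their precursors, and this is a description of how they looked in mice without disease. Only the 5 arrays of control mice were used, of the 10 arrays in the study; the other 5 come from Scl-tTA::TRE-BCR/ABL mice, a leukaemia model called BA, and enter no value here. Each array holds the cells of a single mouse. Every gene entered that had a probe set with exactly 1 gene symbol; where it had several such sets, the brightest on average in the control mice stood for it. This gave 19938 genes. There was no contrast between groups, so nothing was tested, and the values describe levels, their order and their spread between mice.

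The control mice were on a C57BL/6 background; the labels call them age-matched controls and give no allele for them. They shared the treatment of the study: doxycycline was taken away at 5 weeks of age and bone was collected 5 to 6 weeks later. Crushed and washed bone was digested with type I collagenase at 3 mg/ml for 1 h at 37 °C and the released cells passed a 45 µm filter. They were stained for CD51, CD45, CD31, Sca-1 and the blood lineage antigens Gr-1, Mac-1, Ter119, B220, CD3, CD4, CD5 and CD8, and then sorted; which of these marks were required and which excluded is not stated in the labels. Between 500 and 2300 cells gave the RNA of a mouse. It was amplified as a whole transcriptome and read on Gene ST 1.0 arrays of Affymetrix. Values carry the log2 scale throughout, and a difference of 1 is a 2-fold difference in signal.

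Cells of the osteoblast lineage arise from mesenchymal progenitors, secrete the collagen and other matrix proteins of bone and bring about its mineralisation, and some become osteocytes once the matrix encloses them. Growth plate and joint cartilage lie against the same bone surfaces; their chondrocytes make a matrix of type II collagen and aggrecan under the regulator SOX9, enlarge into hypertrophic cells, and can give rise to osteoblasts. Stromal cells around the vessels of the marrow secrete CXCL12 and stem cell factor, which hold blood stem cells in place, and give rise to fat cells. Tendon, periosteum and blood cells are further neighbours that a digest of bone can release. In a bulk sample such as this, fewer cells of a type and less RNA per cell cannot be told apart.

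The arrays were alike in overall level, with medians over all genes between 6.09 and 6.17, and Pearson's r between 2 arrays, across genes, which are not independent replicates, lay between 0.899 and 0.933 in the 10 pairs. The cells of mouse 5 stood somewhat apart: that array had the lowest mean r with the others (0.903). It held 25.1% of all squared deviations from the genes' means, against 16.5% to 20.6% for the others. Its value lay apart above the other 4 in 355 genes, against 148 to 198, by Dixon's ratio. That ratio, given in full below, sets a gap against the range and does not measure distance. Mouse 5 held the highest value of the 5 in 32.1% of all genes and lay above the gene's own mean in 61.3%, so counts of members highest there are read against those shares. Depth is not defined for an array, and 5 arrays limit the precision.

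No detection calls were used, so the 1027 olfactory receptor genes, which serve the nose, gave a yardstick for signal without the gene's RNA. Their median level was 4.54, and their 95th percentile, 6.18, is called the reference level below. Of all 19938 genes, 9827 lay above it on average, or 49.3%. This share rests on the yardstick: with the 99th percentile of the same genes 5544 genes lay above, and with markers of liver, brain, gut, skin and germ cells in place of the receptors 5850 did. A gene counts below as among the top 25% of genes by level at 6.91 or more (25% of genes) and among the top 10% at 8.01 or more (10% of genes). Olfactory receptor genes and other genes overlapped over a wide range, as the histogram of levels shows.

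**Figure D1:**
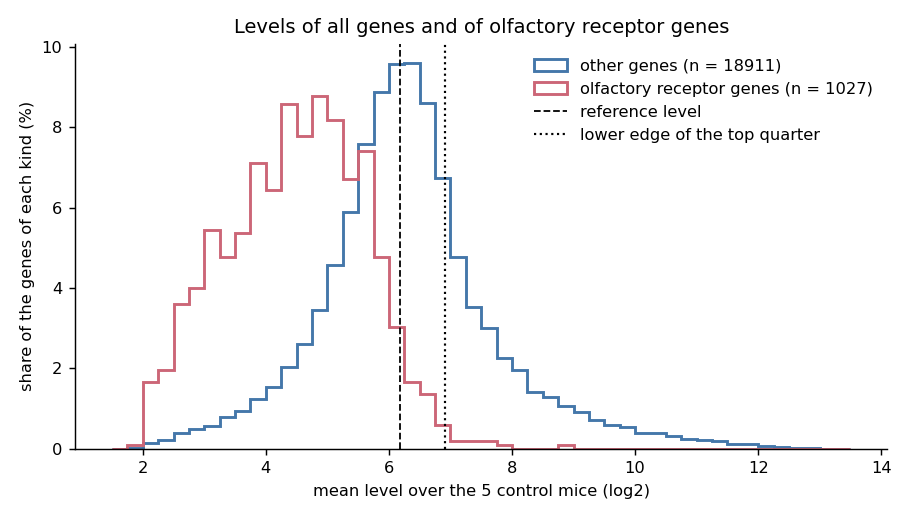
Share of genes (vertical axis, %) in bins of mean level over the 5 control mice (horizontal axis, log2), for the 1027 olfactory receptor genes and for all other genes. The dashed line marks the reference level of 6.18 and the dotted line the lower edge of the top 25% at 6.91. The highest olfactory receptor gene lay at 8.77, and the long tail to the right of it belongs to the other genes.

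The brightest genes were those of matrix and of protein synthesis. The order below is an order of signals: probe sets differ in how strongly they bind, so it does not rank the amounts of RNA. Sparc, osteonectin, a collagen-binding protein of bone matrix, gave 12.99, 12.89, 13.09, 12.99 and 12.99 in mice 1 to 5, a mean of 12.99 ± 0.07 (SD, n = 5); errors below are the SD over the 5 mice. Fn1, fibronectin, averaged 12.81 ± 0.06, and Prg4, lubricin, the lubricant of joint surfaces, averaged 12.76 ± 0.19. Ibsp, bone sialoprotein, which binds hydroxyapatite, averaged 12.71 ± 0.08, and Dcn, the collagen-binding proteoglycan decorin, averaged 12.66 ± 0.17. These 5 genes hardly varied between mice: the widest range among them was that of Prg4, from 12.53 in mouse 2 to 13.02 in mouse 3. A small spread is usual at such levels: the median SD of genes at 11 or more was 0.19, close to the SDs of Prg4 and Dcn.

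Further secreted proteins among the 25 brightest were Cst3, the protease inhibitor cystatin C (12.61 ± 0.08), Chad, chondroadherin of cartilage (12.55 ± 0.15), Mgp, a matrix protein and inhibitor of calcification (12.39 ± 0.14), and Cnmd, chondromodulin, a cartilage inhibitor of vessel growth (12.27 ± 0.23). The rest were mostly genes any cell uses, such as the ribosomal protein genes Rps12 (12.48 ± 0.06), Rps20 (12.36 ± 0.11) and Rps6 (12.22 ± 0.08), the elongation factor gene Eef1a1 (12.38 ± 0.22), the beta-actin gene Actb (12.29 ± 0.09) and the chaperone genes Hsp90b1 (12.20 ± 0.08) and Hspa8 (12.18 ± 0.08). The noncoding RNAs Rn7sk (12.79 ± 0.06), Gas5 (12.71 ± 0.02) and Malat1 (12.50 ± 0.09) were there too. Neighbours in this order could rarely be told apart: in 22 of the 24 neighbouring pairs the ranges over the mice overlapped. Of the 25 genes, 15 were among the 25 brightest in every mouse, and 37 genes were so in at least 1.

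The single brightest gene, Baiap2l1, which encodes an adaptor protein of the actin cytoskeleton, at 13.33 ± 0.07, cannot be taken at its name. Its probe set lists no RefSeq transcript of the gene and shares an accession with the probe set of 28S ribosomal RNA, while the gene's probe set that does list its own transcript averaged 6.68, at position 6257 in the order. In all, 61 genes were represented by a probe set without a RefSeq transcript of their own where another of their probe sets had one, and 32 of them lay in the top 25%. The RNA polymerase I factor gene Taf1d would stand at 9.04 in place of 11.44, the integrin-associated protein gene Cd47 at 8.67 in place of 11.16 and the hexokinase gene Hk1 at 7.95 in place of 10.96.

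Osteoblast genes were bright, osteocyte genes much less so. Of 15 measured osteoblast genes, among 22 on the list, 12 lay in the top 25% and their median was 8.04, against 6.16 over all genes. Col1a1 and Col1a2, the chains of the main collagen of bone, averaged 10.65 ± 0.33 and 10.63 ± 0.12, and Alpl, alkaline phosphatase, which frees phosphate for mineral, averaged 10.22 ± 0.57. Alpl gave 9.78, 9.90, 9.74, 10.75 and 10.92, with mice 4 and 5 above the others. Sp7, osterix, the regulator that commits cells to the osteoblast fate, was highest in mice 4 and 5 as well and gave 6.88, 7.81, 6.73, 8.38 and 8.88.

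Omd, osteomodulin of mineralised matrix, averaged 8.76 ± 0.64, Dlx5, a homeobox factor of osteoblasts, 8.45 ± 0.39, and Tnfsf11, RANKL, the signal for osteoclast formation, 7.78 ± 0.14. Ifitm5, a gene of mineralising osteoblasts, gave 8.30 in mouse 1 and between 6.84 and 7.26 in the others. The lowest was Phospho1, a phosphatase of mineralisation, at 5.63 ± 0.56, below the reference level in every mouse, as was the homeobox gene Msx2, at 5.65 ± 0.09. The osteoblast list as a whole differed little between mice, with means from 8.48 in mouse 3 to 8.90 in mouse 5. Its 15 genes had a median SD of 0.39.

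Of 10 osteocyte genes 3 lay in the top 25%, close to the share of all genes, and the median was 6.55. Phex, an endopeptidase that governs phosphate handling, was the brightest at 9.21 ± 0.64, and Capg, an actin-capping protein, averaged 7.09 ± 0.64. Sost, which encodes the Wnt inhibitor sclerostin, averaged 6.91 ± 0.16, just under the top 25%. Dmp1, a matrix phosphoprotein, averaged 6.54 ± 0.17 and Fgf23, a phosphate hormone, 6.32 ± 0.12, both close to the reference level. Mepe, another matrix phosphoprotein, was the lowest at 3.97 ± 0.54. Pdpn, podoplanin, a membrane protein of young osteocytes, varied most between mice, with 8.55, 7.01, 6.09, 9.19 and 6.88: it was high in mice 1 and 4 and below the reference level in mouse 3.

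Cartilage genes were bright throughout. Their list had a higher median than the osteoblast list, as far as signals of different probe sets can be set side by side. The comparison covers all 20 chondrocyte genes but only 15 of the 22 osteoblast genes. Both lists were chosen with earlier results of these data known, so the counts and medians describe these lists only. Of 20 chondrocyte genes 19 lay in the top 25% and 18 in the top 10%, and the median was 10.41. The cartilage matrix genes Chad, Cnmd and Comp were the brightest; Comp, cartilage oligomeric matrix protein, gave 12.16, 11.96, 12.06, 12.30 and 12.28. Snorc, a membrane proteoglycan of chondrocytes, averaged 11.75 ± 0.24, Hapln1, the link protein that ties aggrecan to hyaluronan, 11.31 ± 0.17, and Ucma, a secreted protein of young chondrocytes, 10.81 ± 0.59. Col2a1, the fibrillar collagen of cartilage, averaged 10.21 ± 0.25. The chondrocyte list was bright in every mouse, with list means between 9.77 and 10.56. Which of the sorted cells gave this signal was not tested.

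Regulators of cartilage lay in the top 25% beside its matrix genes. Trps1, a repressor of the GATA family that acts in the growth plate, averaged 11.15 ± 0.43, and the partners of SOX9, Sox5 and Sox6, averaged 8.15 ± 0.65 and 7.81 ± 0.35. The lowest member was Matn1, matrilin 1, at 6.60 ± 0.45. Epyc, epiphycan, a small proteoglycan of the growth plate, varied most and gave 9.78, 7.61, 7.47, 9.97 and 10.34: it was near 10 in mice 1, 4 and 5 and near 7.5 in mice 2 and 3. Of the 20 genes, 15 had their highest value in mouse 5, against 32.1% of all genes, and 12 had their lowest in mouse 3, against 17.3%.

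All 9 genes of the hypertrophic list lay in the top 25%, with a median of 10.22, but Alpl and Ibsp are on the osteoblast list too. Col10a1, the collagen of hypertrophic cartilage, gave 10.28, 10.20, 10.69, 10.98 and 10.81, lowest in mice 1 and 2. Mmp13, the collagenase that opens the matrix for vessels, averaged 10.25 ± 0.59, Clec3a, a lectin of cartilage, 11.61 ± 0.40, and Pth1r, the receptor of parathyroid hormone and its relative PTHrP, 9.73 ± 0.75. Panx3, a membrane channel of hypertrophic cells and osteoblasts, gave 10.19, 8.16, 8.23, 10.14 and 9.68, high in the same 3 mice as Epyc. Ihh, Indian hedgehog, the signal of prehypertrophic cells, was the lowest at 6.99 ± 0.15, with all 5 mice between 6.76 and 7.18.

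The first 60 bases before the start of Chad are shown because it was the brightest gene of cartilage and the only one of the 14 chondrocyte genes with a promoter in the RefSeq table (assembly GRCm38.p6) to hold the TATA motif in the usual window. The stretch is chr11:94564987-94565046, plus strand, read 5′ to 3′ up to the base before the start, with the motif TATAAA in capitals.

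Chad: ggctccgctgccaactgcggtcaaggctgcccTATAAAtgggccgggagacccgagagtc

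TATAAA was searched on the gene's own strand within 40 to 20 bases before each start, and in the stretches printed here it overlaps no other motif searched. It was found in 1.91% of all 32851 promoters and in 2.24% of the 19116 promoters of measured genes. In Chad it spans bases 28 to 23 before the start. A match in letters is a description of the sequence and no site of binding was measured.

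Genes of the joint surface and of tendon were bright as well. Of 9 joint and synovial genes 7 lay in the top 25%, with a median of 7.28. After Prg4 came Abi3bp, a matrix-binding protein, at 10.27 ± 0.59, Vit, vitrin, at 10.19 ± 0.47, and Cilp, a protein of the middle layer of cartilage, at 8.96 ± 0.67. Gdf5, a growth factor of forming joints, was the lowest at 5.87 ± 0.18. Abi3bp was lower in mouse 5 (9.25) than in the others (10.37 to 10.76).

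Of 10 tendon and ligament genes 9 lay in the top 25%, with a median of 9.09 and a wide spread: for a given gene the ratio of its SD to the running median SD of genes of like level is called the SD ratio here, and the list's median SD ratio was 1.76. Egr1, a factor of tendon and an immediate early gene at once, averaged 11.46 ± 0.06, Col12a1, a collagen on fibril surfaces, 11.39 ± 0.13, and Fmod, fibromodulin, 11.29 ± 0.23. These 3 were steady. Tnmd, tenomodulin, the membrane protein most typical of tendon cells, gave 8.22, 7.57, 10.51, 8.42 and 6.02, and Kera, keratocan, gave 8.0, 8.63, 10.11, 8.52 and 5.36. Thbs2, thrombospondin 2, gave 8.47, 7.76, 9.75, 7.40 and 6.77. Each of the 3 was highest in mouse 3 and lowest in mouse 5, where Tnmd and Kera lay below the reference level. The mean of the whole list ran from 8.54 in mouse 5 to 10.06 in mouse 3, and 7 of its 10 members were highest in mouse 3, against 20.5% of all genes. Scx, scleraxis, the regulator of tendon fate, averaged 7.02 ± 0.46 and was highest in mouse 5, and Mkx, a homeobox regulator of tendon, lay near the reference level at 6.36 ± 0.22.

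Of 10 genes of periosteal progenitors 6 lay in the top 25%, with a median of 7.15. Aspn, asporin, a small proteoglycan, averaged 11.37 ± 0.91, Postn, periostin, 10.69 ± 0.89, and the homeobox gene Prrx1 9.16 ± 0.63. Aspn and Postn were lowest in mouse 4, with 9.87 and 9.41, and highest in mouse 3, with 12.24 and 11.85. The T-box gene Tbx18 was the lowest at 5.67 ± 0.25.

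**Figure D2:**
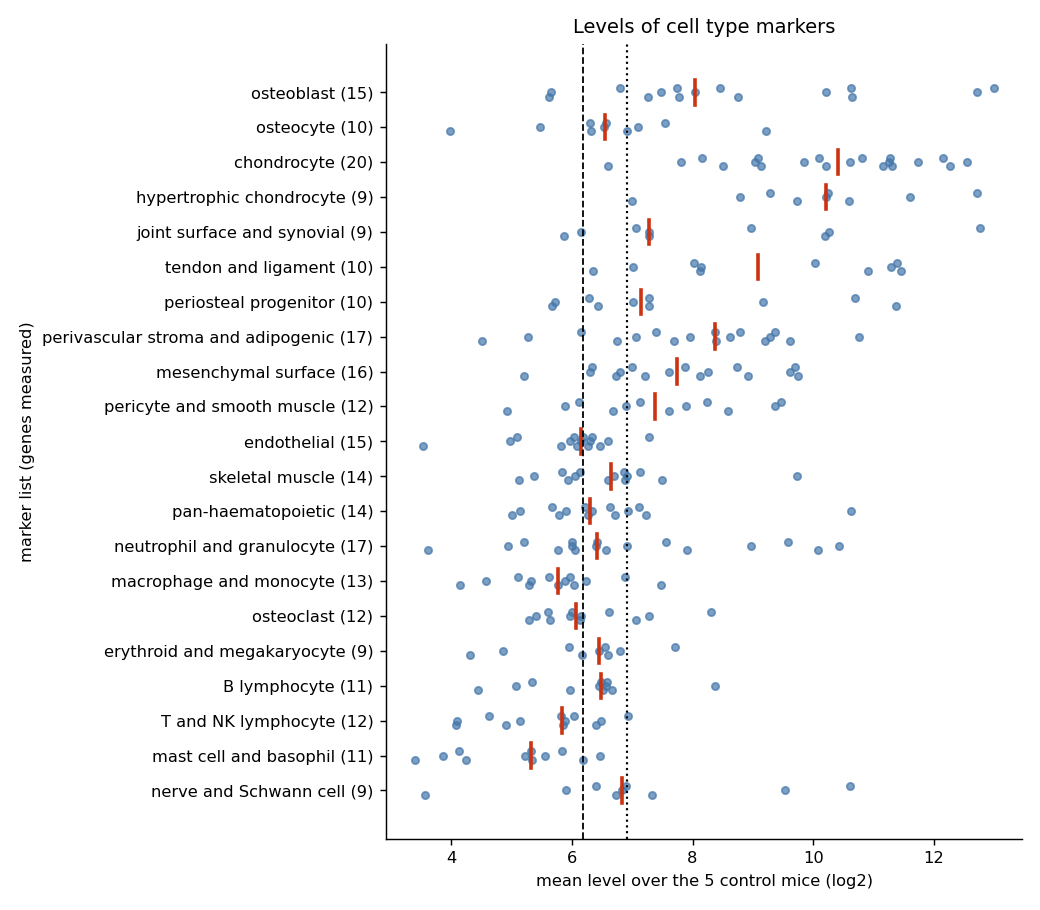
Mean level over the 5 control mice (horizontal axis, log2) of each measured marker gene (points), by cell type list (vertical axis, genes measured in brackets); red bars are list medians, the dashed line is the reference level of 6.18 and the dotted line the edge of the top 25% at 6.91. Chondrocyte and hypertrophic genes lie farthest to the right, with medians of 10.41 and 10.22, and endothelial, macrophage, lymphocyte and mast cell genes lie around or left of the reference level.

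The stromal genes that support blood stem cells were bright and had the largest median SD between mice among the skeletal lists. Of 17 measured genes of perivascular stroma and fat precursors, 13 lay in the top 25%, the median level was 8.37 and the median SD 1.02, against 0.23 over all genes. An SD above 1 was found in 9 of the 17, against 4.43% of all genes. Part of this goes with level: among genes between 8 and 9 the median SD was 0.54 and 13.6% had an SD above 1. Set against genes of like level, the list's median SD ratio was 2.17. Cxcl12, the chemokine that retains blood stem cells in marrow, gave 11.80, 11.75, 10.56, 9.84 and 9.81. Lepr, the leptin receptor, which marks these stromal cells, gave 10.13, 10.63, 9.60, 8.22 and 8.28, and Adipoq, adiponectin, made by fat cells and their marrow precursors, gave 10.60, 10.81, 9.92, 8.33 and 8.43. Mice 1 and 2 were highest, mouse 3 lay between, and mice 4 and 5 were lowest for all 3 genes.

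Kitl, stem cell factor, had the widest range: its values were 9.59, 9.02, 7.20, 5.82 and 5.34, so the gene ranked with bright genes in mice 1 and 2 and lay below the reference level in mice 4 and 5. Ebf1, a regulator of these cells and of B cells, gave 9.75, 9.25, 8.45, 7.13 and 7.25, and Vcam1, an adhesion molecule for blood cells, gave 9.93, 10.22, 9.75, 8.35 and 8.15. Gas6, a ligand of the AXL receptor family, averaged 9.21 ± 1.15, Esm1, a secreted proteoglycan, 8.79 ± 1.02, and Lpl, lipoprotein lipase, 8.62 ± 1.51. Angpt1, angiopoietin 1, gave 6.83, 6.74, 4.48, 3.82 and 4.49, above the reference level in mice 1 and 2 alone. Foxc1, a regulator of the niche, averaged 8.39 ± 0.58 and was highest in mouse 1.

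Other adipogenic genes did not share this order. Pparg, the master regulator of fat cells, gave 5.87, 6.89, 6.71, 5.81 and 5.47, Plin1, the coat protein of fat droplets, 7.01, 6.88, 7.31, 7.11 and 7.04, and Fabp4, a fatty acid carrier, 6.46, 6.33, 6.69, 6.74 and 7.50, with Fabp4 highest in mouse 5. Il7, a lymphoid growth factor, was at 4.50 ± 0.15, well below the reference level in all mice. The order of both mouse 1 and mouse 2 above mouse 3, and mouse 3 above both of the others, was met by 10 of the 17 members and by 2.3% of all genes. This order was picked after the values had been seen, and the 5 mice allow no test of it. The list means were 8.73, 8.73, 8.04, 7.18 and 7.07 in mice 1 to 5, in the same order under quantile normalization, while centring on the medians put mouse 2 slightly above mouse 1.

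The starts of Kitl and Cebpa are shown because they were the only 2 of the 12 genes of this list with a promoter in the RefSeq table to hold TATAAA in the window given above; Cebpa encodes a regulator of fat and myeloid cells and gave 8.70, 8.34, 7.26, 7.32 and 6.88. Kitl is chr10:100015761-100015820 and Cebpa chr7:35119233-35119292 (GRCm38.p6, plus strand, 60 bases up to the start, motif in capitals).

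Kitl: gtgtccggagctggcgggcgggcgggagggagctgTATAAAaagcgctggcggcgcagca

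Cebpa: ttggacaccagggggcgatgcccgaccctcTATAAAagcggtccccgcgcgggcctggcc

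The motif spans bases 25 to 20 before the start in Kitl and 30 to 25 in Cebpa. By gene, 16.7% of the 12 held it, against 2.31% of all 27025 genes with a promoter. For the other 10 genes the letters are absent from this window, which says nothing of their control.

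Some of the most variable genes had their highest value in mouse 1 or 2 as well. Fmo2, a monooxygenase, gave 10.56, 10.04, 8.25, 5.28 and 5.78, and Hp, haptoglobin, a binder of free haemoglobin, 11.48, 11.66, 11.15, 9.09 and 7.41. Gsta4, a glutathione transferase, gave 9.20, 9.67, 8.28, 5.52 and 5.41, and Efemp1, fibulin 3, 10.30, 9.04, 5.88, 6.89 and 4.64. These 4 were picked after their values had been seen; in Efemp1 mouse 4 lay above mouse 3, so it did not share the whole order. Xist, the RNA that coats the inactive X chromosome of females, gave 4.76, 4.67, 5.08, 10.44 and 9.81, high in the 2 mice with the lowest stromal values. The Y-linked gene Eif2s3y gave 4.92, 8.51, 5.74, 3.57 and 3.40 and Uty 5.23, 6.37, 6.22, 3.49 and 4.29, both lowest in mice 4 and 5. A further Y-linked gene, Kdm5d, gave 5.55, 6.24, 5.19, 4.92 and 5.32, lowest in mouse 4, with mouse 3 below mouse 5. Neither sex nor the number of cells sorted is given per mouse in the labels. The part of sex in the stromal pattern cannot be told apart from any other difference between these mice, and it was not tested.

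**Figure D3:**
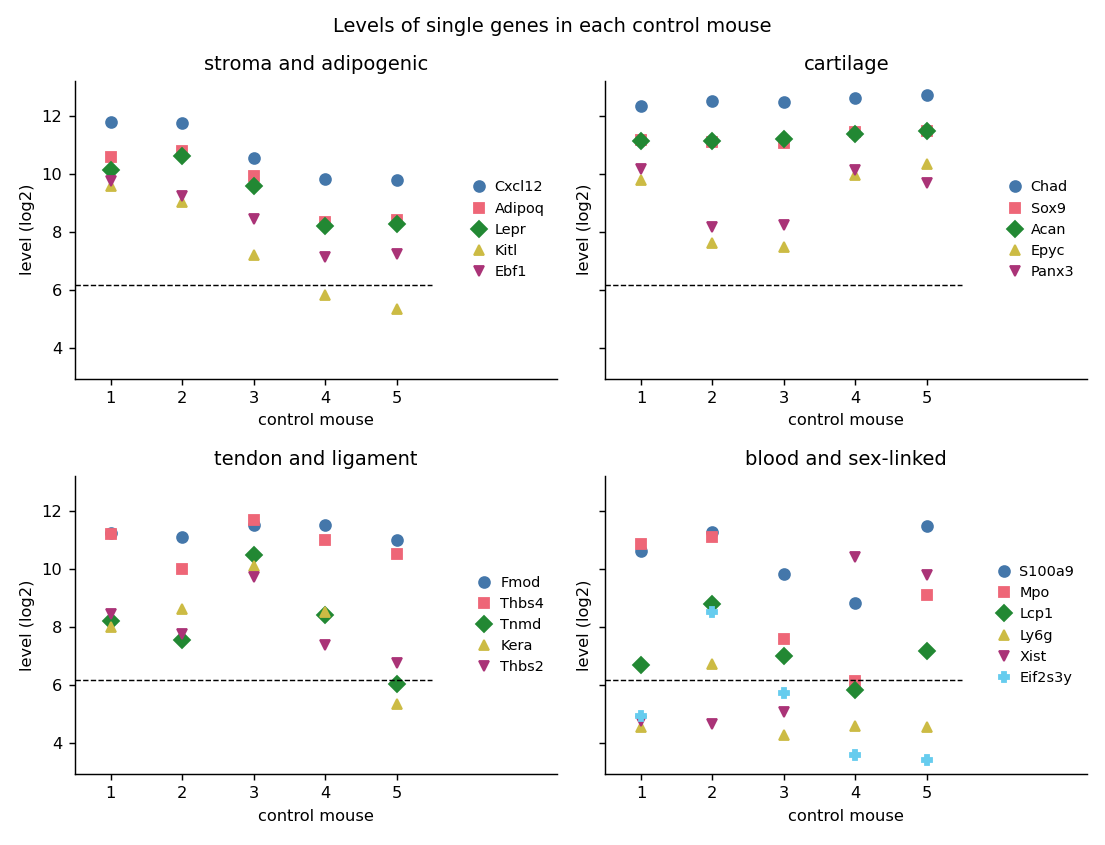
Level (vertical axis, log2) of single genes in each of the 5 control mice (horizontal axis); each point is 1 array and the dashed line is the reference level of 6.18. Kitl lies at 9.59 in mouse 1 and at 5.34 in mouse 5, while Chad stays between 12.37 and 12.75; Tnmd and Kera peak in mouse 3, and Xist is near 10 in mice 4 and 5 only.

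Of 16 surface proteins used to mark mesenchymal cells, 11 lay in the top 25%, with a median of 7.74. Nt5e (CD73) averaged 9.75 ± 0.36, the tetraspanin genes Cd81 and Cd9 9.71 ± 0.78 and 9.61 ± 0.60, and Cd200 8.92 ± 0.54. Pdgfra, the PDGF receptor that marks stromal progenitors, gave 8.94, 9.0, 8.77, 7.16 and 6.77, at or above 8.77 in mice 1 to 3 and lower in mice 4 and 5. Eng (CD105) lay at 6.30 ± 0.09, and Nes, nestin, was the lowest at 5.20 ± 0.20.

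Of 12 pericyte and smooth muscle genes 7 lay in the top 25%, with a median of 7.37. Acta2, smooth muscle actin, averaged 9.46 ± 0.56, Myh11, smooth muscle myosin, 9.36 ± 0.53, and Rgs5, a pericyte regulator of G proteins, 8.60 ± 0.34. Cnn1, calponin, gave 8.14, 7.61, 9.30, 10 and 6.12: it was below the reference level in mouse 5 and highest in mouse 4. Myocd, the regulator of smooth muscle genes, was the lowest at 4.92 ± 0.20. Of 14 skeletal muscle genes 4 lay in the top 25%. Tnni2, fast troponin I, averaged 9.73 ± 0.15 in a band of 9.48 to 9.87, Tnnt3, fast troponin T, 7.50 ± 0.52, Ckm, muscle creatine kinase, 7.13 ± 0.16 and Myod1, the regulator of muscle fate, 6.92 ± 0.32. The myosin genes Myh1 and Myh4 lay at 5.12 ± 0.26 and 5.37 ± 0.06. Mylpf, a fast muscle myosin light chain, was at 8.51 in mouse 3 and between 5.37 and 5.63 in the others.

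Of 15 endothelial genes 1 lay in the top 25% and 7 lay above the reference level; the median was 6.15. The brightest, Erg, is also a factor of articular cartilage; it gave 6.46, 6.35, 6.74, 8.41 and 8.44, with mice 4 and 5 apart from the rest. Vwf, the clotting factor of endothelium, averaged 6.59 ± 0.09 and Egfl7, a secreted vessel protein, 6.46 ± 0.14. The defining genes Cdh5 (VE-cadherin), Kdr (VEGF receptor 2), Tek and Emcn averaged 5.81 ± 0.06, 5.09 ± 0.21, 4.97 ± 0.41 and 3.53 ± 0.18. Pecam1, the gene of CD31, a target of the sort, gave 5.75, 5.76, 5.66, 5.73 and 6.94, and 14 of the 15 genes were above their own mean in mouse 5, against 61.3% of all genes.

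Of 14 pan-haematopoietic genes 4 lay in the top 25%, near the share of all genes and 9 above the reference level, with a median of 6.30. Runx3, a regulator of lymphocytes and of cartilage, averaged 7.24 ± 0.32. Ptprc, the gene of CD45, gave 5.54, 5.90, 5.73, 5.63 and 5.59, below the reference level in every mouse. Of the 14 genes 13 had their highest value in mouse 2, against 13.7% of all genes, among them Lcp1, an actin-bundling protein, with 6.71, 8.81, 7.01, 5.83 and 7.17, and Cd53, a tetraspanin, with 6.15, 7.40, 4.83, 5.01 and 6.11. The list means were 6.49, 7.16, 6.40, 6.13 and 6.52 in mice 1 to 5.

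Neutrophil and granulocyte genes had the largest median SD ratio among the cell type lists. Of 17 genes 7 lay in the top 25%, and the median SD was 0.84, with a median SD ratio of 3.43. S100a9 and S100a8, the 2 chains of calprotectin, averaged 10.42 ± 1.10 and 10.08 ± 0.63, and Ngp, a granule protein, 9.58 ± 0.84. Mpo, myeloperoxidase, gave 10.86, 11.13, 7.58, 6.13 and 9.11, and Retnlg, a resistin-like protein, gave 6.16, 9.28, 7.43, 6.43 and 10.24. Ctsg, cathepsin G, was at 8.62 in mouse 2 and between 4.72 and 5.96 in the others. Ly6g, of the Gr-1 antigen and so a target of the sort, gave 4.55, 6.74, 4.27, 4.57 and 4.54. Of the 17 genes 9 were highest in mouse 5 and 7 in mouse 2, against 32.1% and 13.7% of all genes. None was above its own mean in mouse 4, where 39.3% of all genes were. Cxcr2, the receptor by which neutrophils leave the marrow, was at 3.62 ± 0.29, under the reference level in all 5.

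The lists of macrophage, lymphocyte and mast cell genes had medians between 5.33 and 6.49, beside 5.57 for markers of other tissues. The top 25% held 1 of 13 macrophage genes (Cd68, a lysosomal protein, at 7.48 ± 0.57), 1 of 11 B cell genes (Ebf1, shared with the stromal list), 1 of 12 T and NK cell genes (Cd3e, at 6.93 ± 0.12), 1 of 9 erythroid and platelet genes (Slc4a1, the red cell anion exchanger, at 7.71 ± 0.58) and 0 of 11 mast cell genes. The erythroid and platelet list has 17 entries, of which only 9 were measured, so its count covers part of the list. The macrophage receptor gene Csf1r averaged 5.29 ± 0.11 and the lineage gene Adgre1 (F4/80) 4.58 ± 0.12. Lyz2, lysozyme of myeloid cells, gave 7.05, 7.38, 5.34, 4.22 and 7.22, high in the mice with bright Mpo. Of 12 osteoclast genes 3 were in the top 25%. Nfatc1, a factor of osteoclasts and many other cells, averaged 8.31 ± 0.29. Ctsk, the collagen-cleaving protease cathepsin K, which is also on the periosteal list, averaged 7.29 ± 0.73, and Siglec15, a receptor of osteoclast formation, 7.07 ± 0.11. Acp5 (TRAP) and Calcr, the calcitonin receptor gene, averaged 6.15 ± 0.16 and 5.60 ± 0.11. Vpreb1, a part of the receptor of early B cells, was at 8.92 in mouse 3 and between 5.73 and 6.31 elsewhere.

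Of the 9 measured targets of the sorting antibodies, Itgav, the gene of CD51, was the brightest, with 8.70, 8.45, 8.58, 8.57 and 9.42. Those of lineage antigens averaged 6.93 ± 0.12 for Cd3e, 6.04 ± 0.17 for Cd5, 6.04 ± 0.18 for Cd8a, 5.85 ± 0.14 for Cd4 and 5.12 ± 0.21 for Itgam (Mac-1). The part of leftover blood cells in any value was not tested. Of 9 genes of nerve and Schwann cells 3 lay in the top 25%, led by Egr2 at 10.60 ± 0.11 and Pmp22, a growth arrest gene, at 9.53 ± 0.58, both of which other cells use, while Sox10, the regulator of Schwann cells, averaged 6.89 ± 0.11 and Cdh19 3.57 ± 0.50.

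**Figure D4:**
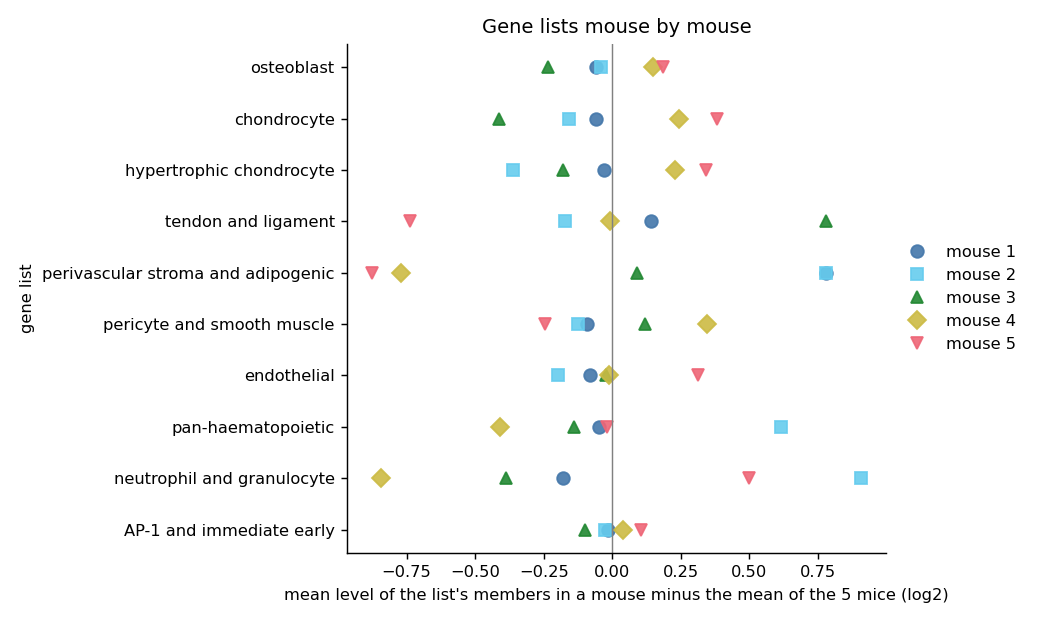
Mean level of a list's members in each mouse minus the mean of the 5 mice (horizontal axis, log2) for 10 gene lists (vertical axis); each point is 1 control mouse, marked by colour and shape. The stromal list runs from -0.88 in mouse 5 to 0.78 in mouse 1, the tendon list from -0.74 in mouse 5 to 0.78 in mouse 3, and the granulocyte list from -0.84 in mouse 4 to 0.91 in mouse 2, whereas the immediate early list stays within 0.11 of its mean.

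Matrix genes as a class were bright: of 202 genes on the matrix lists, 64.9% lay in the top 25%. Among 14 small leucine-rich proteoglycans, which bind collagen and growth factors, 13 did, with a median of 9.99. Prelp, which anchors basement membranes, averaged 11.87 ± 0.23, Bgn, biglycan, 11.44 ± 0.14, and Lum, lumican, 10.64 ± 0.46, and the lowest, Podn, podocan, 6.90 ± 0.23. Of 11 fibrillar collagens 10 did. Col11a1, a minor collagen of cartilage fibrils, averaged 10.61 ± 0.38, Col3a1, a collagen of soft tissue, 8.43 ± 0.65 with its highest value in mouse 3, and Col24a1, a fibrillar collagen of developing bone, 6.64 ± 0.22. Of 15 other collagens 13 did, with Col6a3 of pericellular matrix at 10.90 ± 0.27, and 11 of the 15 were highest in mouse 5, against 32.1% of all genes. This count is not separate from those of cartilage: Col9a1, for example, is on the chondrocyte list too, and Col10a1 on the hypertrophic list.

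Of 28 matricellular proteins, which act on cells more than they bear load, 20 lay in the top 25%. Thbs4, thrombospondin 4 of tendon, averaged 10.90 ± 0.66 and Tnc, tenascin C, 10.04 ± 0.76. Ccn1 (CYR61), a rapid target of growth signals, gave 10.65, 10.64, 10.63, 10.60 and 10.69, one of the steadiest bright genes. The list's mean was 9.01 in mouse 3 and between 8.51 and 8.65 in the others. Of 21 basement membrane genes 10 did. Nid2, nidogen 2, led with 8.81 ± 0.42, and Hspg2, perlecan, which cartilage also uses, followed with 8.65 ± 0.33. Of 16 elastic fibre and crosslinking genes 12 did, among them the lysyl oxidase genes Loxl4 (9.56 ± 0.63), Loxl3 (9.44 ± 0.14) and Lox (8.86 ± 0.54), while elastin itself, Eln, averaged 7.02 ± 0.08.

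The enzymes that build collagen and sulphated sugars were bright. Of 22 genes of collagen synthesis 17 lay in the top 25%, led by Pcolce2, which promotes the cleavage of procollagen, at 12.11 ± 0.15, and Plod2, a lysyl hydroxylase, at 11.10 ± 0.14. Serpinh1, the collagen chaperone HSP47, averaged 9.18 ± 0.20. Adamts3, a procollagen protease, varied most, with 9.37, 7.32, 8.44, 9.66 and 10.85, but it has 16 probe sets, which differ in level. Of 22 genes of sulphation and glycosaminoglycan synthesis 14 did, with Papss2, which makes the sulphate donor, at 10.85 ± 0.45 and Ugdh, which makes a building block of the sugar chains, at 10.15 ± 0.52.

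Of 18 metalloproteinases 5 lay in the top 25%, near the share of all genes: after Mmp13 came Mmp2, a gelatinase, at 9.68 ± 0.81, Mmp16 at 7.90 ± 0.67, Mmp14, the membrane collagenase, at 7.89 ± 0.50, and Mmp23 at 7.12 ± 0.81. Mmp9, the gelatinase of osteoclasts and neutrophils, averaged 6.00 ± 0.28. Of 21 ADAMTS proteases and inhibitors 10 did. The inhibitors Timp3 and Timp2 were brighter, at 10.99 ± 0.44 and 10.02 ± 0.43, and Timp1 gave 9.86, 9.21, 8.74, 8.46 and 10.90. The aggrecan-cleaving enzyme gene Adamts5 averaged 7.33 ± 0.89 and Adamts4 6.67 ± 0.23.

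Of 210 receptor and adhesion genes 36.7% lay in the top 25%. Of 25 cytokine receptor genes 14 did, led by the chains for the interleukin 6 family: Il6st (gp130) averaged 10.25 ± 0.23, Osmr, for oncostatin M, 10 ± 0.59 and Lifr, for leukaemia inhibitory factor, 9.57 ± 0.30. Ifnar2, a chain of the type I interferon receptor, gave 8.77, 9.23, 7.39, 6.85 and 6.81, highest in mice 1 and 2. Of 15 receptors of the TGF-beta and BMP family 8 did. Bmpr2 averaged 9.94 ± 0.26 and the coreceptor gene Tgfbr3 9.21 ± 0.46, and Acvr2a, an activin receptor, gave 8.52, 8.76, 8.23, 7.01 and 6.39, with mice 1 to 3 above mice 4 and 5.

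Of 32 genes on the list of receptor tyrosine kinases, which also held Igf2r, a receptor that is no kinase, 11 lay in the top 25%. Fgfr1 averaged 8.90 ± 0.27, Igf2r 8.67 ± 0.20 and Insr, the insulin receptor, 8.40 ± 0.99, though another probe set of Insr averaged 6.29. Fgfr3, which restrains the growth plate, averaged 7.28 ± 0.14 and Met, the lowest, 4.74 ± 0.40. Of 28 hormone and prostanoid receptors 12 did, with Pth1r and Lepr first, then Nr3c1, the glucocorticoid receptor, at 8.63 ± 0.32. Esr1, the oestrogen receptor, gave 8.16, 7.68, 9.08, 7.34 and 6.77 and Vdr, the vitamin D receptor, 7.16, 6.21, 6.11, 6.41 and 6.37. Ghr, the growth hormone receptor, gave 8.79, 9.29, 8.76, 7.93 and 4.91, with mouse 5 far below the others. Ptgfr, a prostaglandin receptor, was at 8.53 in mouse 2 and between 5.74 and 5.91 in the others.

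Of 23 Wnt and hedgehog receptors 9 lay in the top 25%. Ptch1, the hedgehog receptor that the pathway itself induces, averaged 9.39 ± 0.18, the Wnt coreceptor gene Lrp6 8.50 ± 0.40 and Lrp5 7.14 ± 0.31, and Fzd7, a frizzled receptor, 8.26 ± 0.38. Of 26 integrins 7 did: Itgb1, the shared beta chain, averaged 10.63 ± 0.39, Itga11 and Itga10, alpha chains for collagen, 7.85 ± 0.84 and 7.68 ± 0.54, and Itgb6, an epithelial chain, was lowest at 4.86 ± 0.21. Of 18 cadherins and adhesion molecules 7 did, led by Cdh11, the osteoblast cadherin, at 10.61 ± 0.73 and Gja1, the gap junction protein connexin 43, at 10.34 ± 0.15. Of 10 Notch genes 3 did, of 21 chemokine receptors 5 and of 12 Toll-like receptor genes 1 (Tlr2, at 7.52 ± 0.65). Cxcr4, the receptor of CXCL12, gave 8.75, 9.83, 7.95, 7.77 and 8.54.

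Of 246 genes of secreted signals 29.7% lay in the top 25%, close to the share of all genes. Of 26 ligands of the BMP, GDF and activin family 12 did. Bmp2, a strong inducer of bone, averaged 9.30 ± 1.33 and gave 7.98, 9.91, 8.82, 8.47 and 11.32, highest in mouse 5; Bmp5 averaged 9.26 ± 0.27 and was steady. Mstn, myostatin, gave 6.93, 5.23, 7.80, 8.68 and 5.61. Their antagonists Chrdl1, chordin-like 1, and Fst, follistatin, averaged 9.50 ± 0.71 and 8.38 ± 0.81, and Grem1, gremlin, a mark of skeletal stem cells, 7.44 ± 0.54. Bmp10, a signal of the heart, was lowest at 4.07 ± 0.18.

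Few Wnt ligands were bright: of 19 genes 2 lay in the top 25%, Wnt4 at 7.69 ± 0.36 and Wnt5b at 7.25 ± 0.22. Another probe set of Wnt4 averaged 6.19, next to the reference level. Of 13 Wnt inhibitors 4 did, near the share of all genes, with a median of 6.56. The brightest reached further than the ligands: Sfrp4 averaged 10.75 ± 0.82, Frzb, of articular cartilage, 8.85 ± 0.95 and Wif1 8.36 ± 0.29. Sfrp5 was the lowest at 5.52 ± 0.16. Frzb was lowest in mouse 1 (7.31) and between 8.67 and 9.71 in the others. Of 22 fibroblast growth factors 4 did, among them Fgf2 at 7.93 ± 0.86, Fgf18, a cartilage growth factor, at 7.47 ± 0.49, and Fgf7, a stromal factor for epithelia, which gave 7.26, 10.12, 8.51, 5.46 and 5.98.

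Of 13 genes of the insulin-like growth factor system 8 lay in the top 25%, with the binding proteins Igfbp5 and Igfbp7 at 10.45 ± 1.01 and 10.37 ± 0.33. Igf1 itself gave 8.35, 8.31, 8.71, 6.73 and 6.01, lowest in mice 4 and 5. Among 18 genes of vessel growth factors 7 did, with a median SD ratio of 1.63. Angptl7, an angiopoietin-like protein, gave 9.27, 8.23, 10.97, 8.37 and 7.31 and Ptn, pleiotrophin, 9.40, 8.22, 10.82, 7.35 and 8.25, both highest in mouse 3. Vegfa, the main vessel growth factor, averaged 8.78 ± 0.61. Tnfrsf11b, osteoprotegerin, the decoy that blocks RANKL, averaged 8.67 ± 0.37.

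Of 16 chemokines of the CXC class 5 lay in the top 25%: besides Cxcl12 these were Cxcl1, which draws neutrophils, at 8.88 ± 0.56, and the interferon-induced Cxcl9 and Cxcl10 and Cxcl14. Cxcl9 gave 9.26, 8.34, 8.08, 6.62 and 5.91 and Cxcl10 gave 8.53, 10.51, 5.79, 5.82 and 5.93, both highest in mice 1 and 2. Of 18 chemokines of the other large class (CC) 3 did, with Ccl19, which draws T cells, at 8.04 ± 0.87 and Ccl2, which draws monocytes, giving 8.02, 9.77, 7.52, 6.82 and 6.05. Of 34 interleukins and cytokines 6 did; Il6 gave 7.11, 8.91, 6.16, 4.40 and 5.46, and Tnf and Ifng lay at 5.78 ± 0.18 and 6.10 ± 0.24. Of 20 complement genes 6 did, led by Clu, clusterin, at 11.20 ± 0.33, and Serping1, the inhibitor of the first complement enzymes, which gave 10.77, 10.80, 10.45, 9.17 and 8.96. Of 24 semaphorins, ephrins and netrins 8 did, led by Sema3d at 9.29 ± 0.91. Of 9 hedgehog, PTH family and natriuretic ligands Ihh alone did, and Pth, the hormone of the parathyroid gland, lay at 3.37 ± 0.10.

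Genes of immediate early response were bright and even. Of 24 such genes, which cells induce within minutes of a stimulus, 23 lay in the top 25%, with a median of 9.41, and their median SD was 0.21, with a median SD ratio of 0.69. Fosb and Fos, parts of the AP-1 factor, averaged 11.57 ± 0.19 and 9.11 ± 0.11, and Jun 11.29 ± 0.25. Egr1, a zinc finger factor, gave 11.49, 11.49, 11.47, 11.49 and 11.36, and Egr2 gave 10.48, 10.73, 10.60, 10.70 and 10.51. Btg2 averaged 11.24 ± 0.25, the phosphatase gene Dusp1 10.93 ± 0.22, the mRNA-destabilising factor gene Zfp36 10.55 ± 0.20 and Atf3, a stress factor, 9.59 ± 0.41. Nr4a3, an orphan nuclear receptor, was the exception, with 6.76, 7.67, 6.28, 5.71 and 5.64. Bone was crushed, washed and digested before RNA was taken, and no sample here was taken without these steps, so the part of handling was not tested.

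The starts of Fos, Egr2 and Zfp36 are shown as those of 3 bright and even members, because serum response factor acts on genes of this kind through the CArG box. The box was searched on both strands in the 250 bases before each start; in Zfp36 it shares 1 base with a GC box (GGGCGG) on the opposite strand, and in Egr2 it overlaps no other motif searched. Fos is chr12:85473830-85473889 (60 bases, plus strand), with TATAAA in capitals. Egr2 is chr10:67537476-67537565 (90 bases, plus strand) and Zfp36 chr7:28379229-28379318 (90 bases, minus strand), each with the CArG box in capitals (RefSeq, GRCm38.p6).

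Fos: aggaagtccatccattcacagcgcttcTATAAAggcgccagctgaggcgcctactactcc

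Egr2: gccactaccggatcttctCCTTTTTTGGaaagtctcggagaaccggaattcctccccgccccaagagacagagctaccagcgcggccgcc

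Zfp36: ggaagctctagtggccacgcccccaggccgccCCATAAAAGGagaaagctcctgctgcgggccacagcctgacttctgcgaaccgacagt

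TATAAA in Fos spans bases 33 to 28 before the start; the CArG box spans bases 72 to 63 in Egr2 and 58 to 49 in Zfp36. Among the 19 immediate early genes with a RefSeq promoter, the box was in 2, or 10.5%, against 1.62% of all 27025 genes. GGGCGG, the GC box, searched on both strands in the 150 bases before the start, was in 17 of their 23 promoters (73.9%), against 28.6% of all promoters and 40.7% of those of measured genes. Boxes that lie farther from the start than this window were not searched.

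Of 34 skeletal transcription factors 19 lay in the top 25%, with a median of 7.13. Sox9 gave 11.18, 11.10, 11.07, 11.45 and 11.49. Atf4, a factor of amino acid supply in osteoblasts, averaged 9.47 ± 0.21, Mef2c, of hypertrophic cartilage, 9.31 ± 0.48, Cbfb, the partner of RUNX factors, 9.12 ± 0.62 and Runx1 9.04 ± 0.50. Foxc2, a forkhead factor of the skeleton, gave 8.74, 6.08, 8.80, 8.78 and 7.97, with mouse 2 alone below the reference level. Sox11 was the lowest at 5.32 ± 0.20.

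All 20 measured ribosomal protein genes lay in the top 10%, with a median of 11.32 and a median SD of 0.20. Of 14 reference genes in wide use 12 lay in the top 25%, but several varied: Hprt, a purine salvage enzyme, gave 9.41, 8.47, 7.15, 10 and 8.56, Ywhaz, a 14-3-3 protein, 10.81, 10.58, 10.28, 10.63 and 8.54 and Tfrc, the transferrin receptor, 9.06, 9.02, 7.56, 8.11 and 6.69. Tpt1, a translation-associated protein, was the steadiest of them, with 12.65, 12.62, 12.66, 12.66 and 12.65. Of 63 markers of liver, brain, gut, skin, lens and germ cells 3 lay in the top 25% (4.76%), namely Ppy, pancreatic polypeptide, at 7.62 ± 0.07, Cryaa, a lens crystallin, at 6.98 ± 0.15 and Prm2, a protamine of sperm, at 6.97 ± 0.12. The 3 were even between mice. Serpina1c, a liver protease inhibitor, averaged 6.59 ± 2.55 but gave 4.17, 4.53, 9.61, 9.01 and 5.64.

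Spread between mice depended on level. Over all genes the median SD was 0.23, with quartiles of 0.15 and 0.40. It was 0.19 for genes below 4, 0.22 between 6 and 7, 0.54 between 8 and 9 and 0.19 at 11 or more. An SD above 1 was found in 883 genes, or 4.43%; the share was 13.6% for levels between 8 and 9 and 0.658% at 11 or more. A range above 2 was found in 1535 genes (7.7%).

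**Figure D5:**
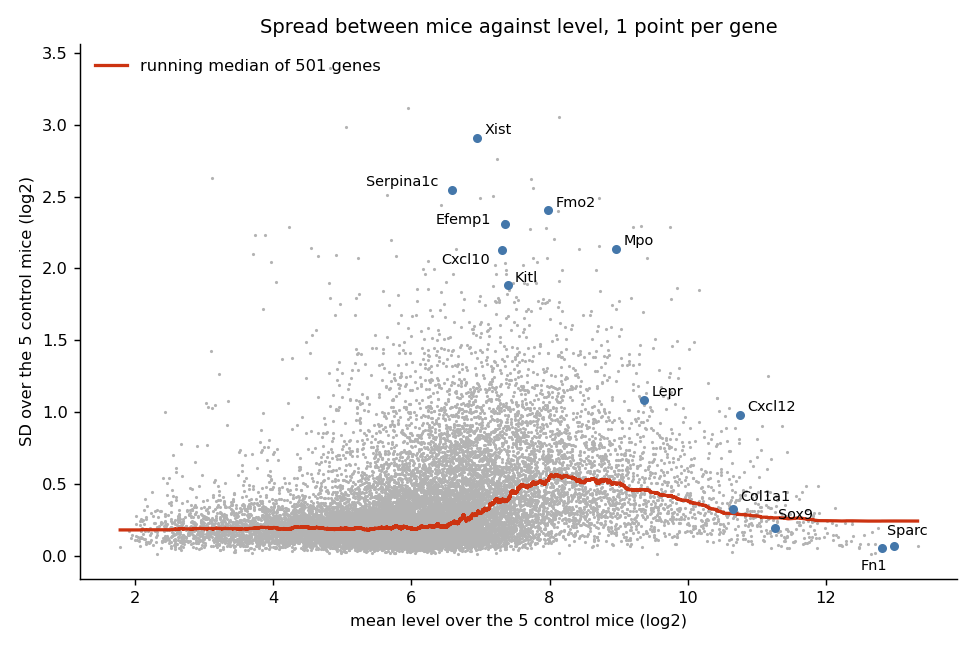
SD over the 5 control mice (vertical axis, log2) against mean level (horizontal axis, log2), with 1 grey point per gene, the running median over 501 genes in red and named genes in blue. The running median rises from about 0.19 at low levels to a peak between 8 and 9 and falls again; Xist, Kitl and Mpo lie far above it and Sparc and Fn1 below it.

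Some genes were bright in 1 or more mice and below the reference level in others. A level of 8 or more in 1 mouse and below the reference level in another was found in 548 genes, or 2.75%; 359 of them were bright in 1 mouse only, 112 in 2, 55 in 3 and 22 in 4. Of the 3648 genes with a mean between 7 and 9, 294 were of this kind. Wtap, a part of the RNA methylation complex, gave 7.14, 9.59, 11.16, 5.69 and 5.20, Hmcn1, a large protein of basement membranes, 5.23, 7.22, 11.41, 9.28 and 5.50, and Fat3, a giant cadherin, 6.11, 10.13, 11.27, 6.58 and 6.51. Psmd10, a proteasome chaperone, gave 8.26, 9.38, 5.06, 5.65 and 10.22 and Taf1a, a factor of RNA polymerase I, 9.49, 9.07, 5.72, 10.34 and 5.67. The order of mice differed from one of these genes to the next. RNA came from at most 2300 cells and was amplified; the part of that step was not tested.

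Being low in 1 mouse alone, with 8 or more in the other 4, was found in 22 genes (0.11%), of which 15 were low in mouse 5, 5 in mouse 3 and 2 in mouse 1. In mouse 5 these included Rbbp6, a ubiquitin ligase, with 5.27 against 9.91 to 10.85, Atxn1, ataxin 1, with 5.38 against 9.02 to 11.18, Lpl with 6.12 against 8.30 to 9.79, and Kera. Ssr2, a subunit of the translocon, was at 5.67 in mouse 1 against 10.43 to 11.03. Being high in 1 mouse alone, with 8 or more there and below the reference level in the other 4, was found in 57 genes (0.286%): 10, 17, 7, 10 and 13 in mice 1 to 5. In mouse 2 these included Tubb3, a neuronal tubulin, at 8.97, in mouse 3 Cnn2, a calponin, at 9.88 and Ostn, osteocrin, a peptide of bone and muscle, at 9.56, in mouse 4 Fv1, a retroviral restriction gene, at 10.78, and in mouse 5 Gen1, a DNA repair nuclease, at 8.44.

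A value of 1 mouse apart from the other 4 by Dixon's ratio (the gap to the nearest value over the whole range, past 0.71) was found in 1481 genes, or 7.43%; chance flags about 1 in 20. The steadiest genes of the top 25%, for their level, were Tgif2, a repressor in TGF-beta signalling, with 8.14, 8.11, 8.12, 8.14 and 8.17, and then the microRNA gene Mir346, Gse1, Tmem121b, Tpt1 and the small GTPase gene Arf5.

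MicroRNA genes were few among the bright ones. Of 296 such genes 78 lay above the reference level (49.3% of all genes did) and 44 in the top 25%. An SD above 1 was found in 13 of the 296, against 4.43% of all genes. An array of this kind binds fragments of longer RNA, so a value of a microRNA gene can stem from its precursor or host transcript. A pair of clusters of related microRNAs is shown, picked after their values had been seen, because Mir99a ran opposite to Mir99b and Mirlet7e between mice. Seeds (bases 2 to 8) are in capitals, and sequences are from RefSeq (GRCm38.p6), where 271 of the 296 genes had an entry.

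miR-99a-5p: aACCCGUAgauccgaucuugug

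miR-99b-5p: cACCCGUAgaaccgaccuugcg

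let-7c-5p: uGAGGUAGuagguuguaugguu

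let-7e-5p: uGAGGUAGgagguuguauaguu

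miR-99a-5p and miR-99b-5p share the seed ACCCGUA, and let-7c-5p and let-7e-5p share GAGGUAG. Mir99a and Mirlet7c-1 lie together on chromosome 16 (the mature forms at chr16:77598940-77598961 and chr16:77599672-77599693), and Mir99b and Mirlet7e on chromosome 17 (chr17:17830194-17830215 and chr17:17830366-17830387), all on the plus strand. Mir99a gave 9.62, 10.85, 4.61, 10.53 and 5.04, high in mice 1, 2 and 4. Mir99b gave 7.30, 7.04, 8.17, 7.07 and 8.68 and Mirlet7e gave 6.42, 6.20, 9.45, 6.19 and 10.53, both highest in mice 3 and 5, the 2 mice where Mir99a was low. Mirlet7c-1, the neighbour of Mir99a, did not follow it and gave 3.93, 8.35, 3.23, 3.65 and 3.56, high in mouse 2 only. Mir125a, the next gene in the chromosome 17 cluster, was even, with 6.61, 6.29, 6.30, 6.67 and 6.71.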

How the data were processed

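Expression was measured on Affymetrix Gene ST 1.0 arrays in sorted cells of 10 mice, of which the 5 control mice were used. The deposited values are on a log2 scale, a scale read from their range of 1.21 to 13.7, and were normalized with GCRMA per the submitters' processing notes; the version and the annotation build are not given in the sources used. The authors' values entered as deposited, with no filter on low values. All columns of the table belong to samples of the series (0 did not). Of 35557 probe sets 21789 carried 1 gene symbol in the platform annotation, 1621 several and 12147 none. Of the 19938 genes 999 had more than 1 probe set. The median gap between a gene's highest and lowest set was 0.77, and 184 had a gap above 2.

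Level is the mean over the 5 mice and spread the SD; the SD ratio divides it by the running median over 501 genes of like level. No test was made, since 1 group was used. Gene lists had 1175 entries in 66 lists, of which 1092 were measured. The members and lists were chosen with earlier results of these data known. The genes named are a selection from those a written rule gives (the 25 brightest, of each list the 3 brightest, the lowest and the most variable, the most and least variable genes, genes far apart in 1 mouse, all sorting targets and sex-linked genes); other genes named, such as list members known for defining a cell type, were chosen after their values had been seen. Alternatives were quantile normalization or centring of the arrays, averaging all probe sets of a gene, genes with 1 probe set, the median in place of the mean, the median absolute deviation in place of the SD, other reference levels, a top 10% in place of the top 25%, members above the reference level only, and each mouse left out. Preferring a probe set that lists the gene's own RefSeq transcript was added after seeing the data. Python 3.11.15, pandas 2.3.3, numpy 2.4.6, scipy 1.17.1 and matplotlib 3.10.9 were used, and the scripts were tested on simulated data.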

Additional observations from a re-analysis of the deposited data

Results flagged for a closer look

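By chance a mouse lies this far from the other 4 in about 1 of 20 genes or lists; over all genes 7.43% did. Some of the genes named were chosen for lying apart in 1 mouse, so their number says nothing beyond that choice. Dixon's ratio, the gap to the nearest value over the whole range, passed 0.71 in 26 of the 299 genes named, in 3 of the 66 lists and in 1 of 6 measures of the arrays. The array measure was the number of genes in which a mouse lay apart on the high side, which was largest in mouse 5 (ratio 0.758). The list means were lowest in mouse 4 for osteoclast genes (ratio 0.715) and chemokine receptors (0.753) and highest in mouse 3 for matricellular proteins (0.732).

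Mouse 5 was the high one for Pecam1, the gene of CD31 (ratio 0.922), for the osteocyte gene Mepe (0.943), for Itgav, the gene of CD51 (0.742), and for Gen1 (0.887). It was the low one for Abi3bp (0.742), Egr1 (0.846), Rbbp6 (0.832) and Ywhaz (0.766). In Egr1 the whole range was narrow, from 11.36 to 11.49.

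Mouse 2 was the high one for Ly6g of the Gr-1 antigen (ratio 0.878), the prostaglandin receptor gene Ptgfr (0.939), the tubulin gene Tubb3 (0.817), Wnt4 (0.729) and Mirlet7c-1 (0.863), and the low one for Cd4 (0.794), the endothelial gene Vwf (0.773) and Tpt1 (0.75). Mouse 3 was the high one for the muscle gene Mylpf (0.917), the early B cell gene Vpreb1 (0.818), the calponin gene Cnn2 (0.852), Ostn (0.734) and Col3a1 (0.757), and the low one for Col11a1 (0.802). Mouse 1 was the high one for Ifitm5 (0.712) and Vdr (0.714) and the low one for Ssr2 (0.888), and mouse 4 the high one for Fv1 (0.915).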

How the results depend on the processing

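No paired analysis was possible because only 1 group was used. Quantile normalization and centring of the arrays left the counts close: 9815 and 9827 genes lay above the reference level (9827 as reported), 883 and 893 had an SD above 1 (883), and the same 25 genes were the brightest. They moved the list means of a mouse by at most 0.0643 and 0.0440 log2; of the 66 lists, 61 and 54 kept their highest mouse and 59 and 59 their lowest. The reference level mattered most: 5544 genes lay above it at the 99th percentile of the olfactory receptor genes and 5850 with the lists of other tissues. Of 483 list entries in the top 25%, 280 lay in the top 10%. The 25 brightest genes shared 15 with those among genes with 1 probe set only, where genes with several could not enter, 20 when all sets of a gene were averaged and 24 when a probe set with the gene's own RefSeq transcript came first. Of 66 lists, 6 had a median SD ratio above 1.5, and 10 did over members above the reference level only. The cause was not tested. Leaving out each mouse in turn gave 9698 to 9890 genes above the reference level, 481 to 486 list entries in the top 25%, 22 to 25 shared genes, 782 to 992 genes with an SD above 1 and 4 to 7 lists. Of 299 genes named, 14 moved by more than their SD with the mean of the probe sets: Adamts3 averaged 7.18, Insr 7.35, Loxl4 8.71, Wnt4 6.94, Trps1 10.02, Gas5 9.93 and Tpt1 12.41. A level near the reference level may be background.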
